A study of Arabidopsis thaliana with 16 samples.

Results

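Pericentromeric H2A.Z sites are described here, that is, summits of H2A.Z ChIP-seq peaks that lie in the regions on either side of the 5 centromeres of *Arabidopsis thaliana*. They were chosen by position alone, as summits inside 1 fixed span per chromosome of TAIR10: 11.5 to 17.7 Mb of chromosome 1, 1.10 to 7.20 Mb of chromosome 2, 10.3 to 17.3 Mb of chromosome 3, 1.50 to 6.30 Mb of chromosome 4 and 9.00 to 16 Mb of chromosome 5. Of 216620 summits in 16 deposited lists, 22498 (10.4%) lay inside these spans, and the other 194122 lay in the chromosome arms. The spans cover 31.1 Mb (26.1%) of the 119 Mb of nuclear chromosomes. By annotation they hold 109 protein-coding genes and 121 pseudogenes per Mb, against 273 and 12.1 per Mb in the arms, and 78.0% of all annotated pseudogenes lie in them. The annotation used does not mark transposable element genes as a class of their own.

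The chromatin came from Col-0 wild type and from plants with the T-DNA insertion allele *mbd9-3*, with *arp6-1* or with both (*arp6-1 mbd9-3*), each sampled as shoots of seedlings at 13 days. Each genotype had 2 replicates grown on separate plates, and each replicate was split into an H2A.Z and an H3 immunoprecipitation, which gave 16 libraries. The authors called the peaks of each replicate with MACS2, H2A.Z over H3 for 8 lists and H2A.Z of one genotype over H2A.Z of another for the other 8, which are called loss lists here. A summit is the position of highest enrichment in a peak, and its score is the −log10 of the q value of the call. Read depth cannot be read from summit lists and is unknown here. The antibody was raised against the H2A.Z proteins HTA9 and HTA11, and each mutation was represented by a single allele.

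H2A.Z is a variant of histone H2A that the SWR1 chromatin remodelling complex exchanges into nucleosomes. ARP6 is an actin-related subunit of SWR1, and MBD9 is a protein with a methyl-CpG-binding domain that associates with the complex. In plants H2A.Z lies mostly on the nucleosomes just after the starts of genes and along the bodies of genes that respond to the environment, and it is sparse where DNA is heavily methylated. Pericentromeric chromatin is rich in transposable elements and methylated DNA, with genes scattered among them.

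To show the DNA under these sites, the reference sequence to 100 bp on each side of some of the highest wild-type summits at gene starts, in gene bodies, in pseudogenes and between genes is printed here (TAIR10.1, plus strand, CG dinucleotides in capitals, since CG is the context in which plant gene bodies and heterochromatin are both methylated). Sites at the start of a protein-coding gene are shown by AT3G44050, which encodes a P-loop nucleoside triphosphate hydrolase (chr3:15818776-15818976, summit in a coding exon 365 bp after the start), and by *ORTHL*, an ORTHRUS-like protein (chr4:5466402-5466602, coding exon, 245 bp after the start of a gene on the minus strand).
AT3G44050: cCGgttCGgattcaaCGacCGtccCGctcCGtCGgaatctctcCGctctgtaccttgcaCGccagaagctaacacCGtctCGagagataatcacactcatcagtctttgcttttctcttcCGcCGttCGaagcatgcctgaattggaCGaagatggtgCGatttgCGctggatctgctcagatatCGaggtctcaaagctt
ORTHL: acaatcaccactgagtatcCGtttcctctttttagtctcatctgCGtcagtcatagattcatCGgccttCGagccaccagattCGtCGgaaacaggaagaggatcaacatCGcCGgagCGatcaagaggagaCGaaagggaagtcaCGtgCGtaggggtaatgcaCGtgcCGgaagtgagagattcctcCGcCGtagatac
A site further inside a gene is shown by *DRD1*, a SNF2-type remodeller of RNA-directed DNA methylation (chr2:7097729-7097929, coding exon, 549 bp after the start). It is shown because it had the highest score of all pericentromeric sites.
DRD1: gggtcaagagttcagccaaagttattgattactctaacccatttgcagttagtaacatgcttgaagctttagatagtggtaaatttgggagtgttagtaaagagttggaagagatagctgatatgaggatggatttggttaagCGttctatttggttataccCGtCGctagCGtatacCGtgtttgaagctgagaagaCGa
Sites in pseudogenes are shown by AT5G27037 (chr5:9518788-9518988) and AT3G29776 (chr3:11655081-11655281), both in an annotated exon, because sites of this kind differed most from the rest in *mbd9-3*. AT5G27037 is annotated as a transcribed pseudogene, a subtype that differed less than plain pseudogenes such as AT3G29776, as given below.
AT5G27037: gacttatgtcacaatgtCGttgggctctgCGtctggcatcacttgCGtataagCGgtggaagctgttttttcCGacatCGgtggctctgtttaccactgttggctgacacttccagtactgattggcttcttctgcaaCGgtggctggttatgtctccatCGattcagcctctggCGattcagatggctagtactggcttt
AT3G29776: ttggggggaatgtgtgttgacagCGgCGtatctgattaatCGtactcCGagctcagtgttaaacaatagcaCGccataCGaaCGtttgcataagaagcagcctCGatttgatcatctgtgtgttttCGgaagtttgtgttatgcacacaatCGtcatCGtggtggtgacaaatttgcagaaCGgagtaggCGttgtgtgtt
An intergenic site is shown by the summit beyond the end of *CYP94D1*, a cytochrome P450 gene (chr1:12639182-12639382, 2228 bp after the start of that gene).
Intergenic site at CYP94D1: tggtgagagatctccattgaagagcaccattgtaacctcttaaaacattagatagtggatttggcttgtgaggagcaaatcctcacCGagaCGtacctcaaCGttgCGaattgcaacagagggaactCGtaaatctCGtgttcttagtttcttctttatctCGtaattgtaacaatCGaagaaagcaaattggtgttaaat
These windows held 18, 16, 6, 9, 13 and 8 CG dinucleotides in the order printed. The mean over all common pericentromeric summits of wild type was 8.18.

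Pericentromeric H2A.Z summits were less dense than those of the arms in all genotypes, and they were most numerous in wild type, fewer in *mbd9-3*, fewer again in *arp6-1* and fewest in the double mutant. Wild-type lists held 3156 and 2713 pericentromeric summits in replicates 1 and 2. Those of *mbd9-3* held 1445 and 1766, those of *arp6-1* 326 and 632, and those of *arp6-1 mbd9-3* 66 and 79. The replicates of different genotypes did not overlap in these counts, and neither did they in the whole lists. Those held 29980 and 26536 summits for wild type and 15024 and 17839 for *mbd9-3*. For *arp6-1* they held 3827 and 7506, and for the double mutant 1243 and 1265. Per Mb, the wild type had 94.4 ± 10.1 summits in the spans and 288 ± 24.1 in the arms (mean ± SD, n = 2 for all densities). Spans and arms of *mbd9-3* had 51.6 ± 7.30 and 168 ± 20.0, those of *arp6-1* had 15.4 ± 6.96 and 58.9 ± 27.1, and those of *arp6-1 mbd9-3* had 2.33 ± 0.296 and 13.4 ± 0.0723. With 2 replicates against 2, the smallest two-sided p that an exact permutation test can give is 0.333, so no test was made.

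**Figure D1:**
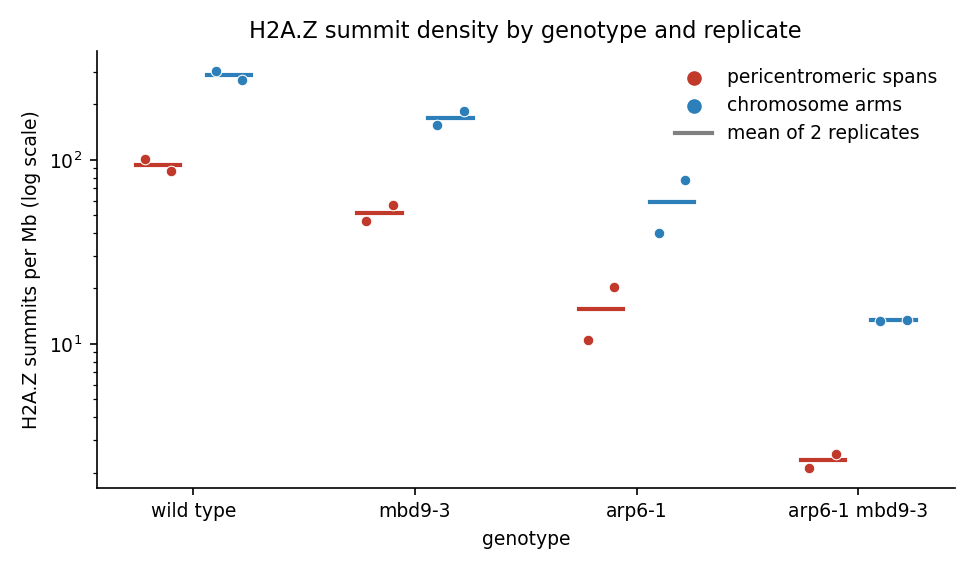
H2A.Z summits per Mb (log scale) in the pericentromeric spans (red) and the chromosome arms (blue) by genotype, with each replicate as a point and the mean as a bar. Wild type had 101 and 87.2 summits per Mb in the spans, and *arp6-1 mbd9-3* had 2.12 and 2.54.

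The wild-type density of the spans relative to the arms was 0.328 ± 0.00756. This ratio was 0.306 ± 0.00693 for *mbd9-3*, 0.262 ± 0.00235 for *arp6-1* and 0.174 ± 0.0211 for the double mutant. The replicates of one genotype did not overlap with those of the next in this ratio, and the direction from wild type to the double mutant was the same in both replicates. This order did not hold among summits with a score of at least 10, where the ratio was 0.260 for wild type, 0.291 for *mbd9-3*, 0.322 for *arp6-1* and 0.694 for the double mutant. Of the 3 and 7 pericentromeric summits of that score in the replicates, 3 and 3 lay in *DRD1*, and the double mutant's ratio was 0.210 without them. The chromosomes differed: in wild-type replicates 1 and 2 the ratio was 0.249 and 0.228 on chromosome 4 and 0.255 and 0.264 on chromosome 2, but 0.388 and 0.386 on chromosome 5. The gap was narrower per gene than per Mb. The wild-type lists held 0.933 and 0.802 pericentromeric summits per protein-coding gene, against 1.11 and 0.990 in the arms. Of the positions of the spans 84.1% start a 50-base word that occurs once in the nuclear chromosomes, against 97.5% in the arms, and per Mb of such positions the wild-type ratio was 0.386 and 0.374.

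The density changed gradually along the spans. For this and all that follows, summits were extended by 100 bp to each side, and a common summit is an overlap between the 2 replicates. Paired summits thus lay at most 200 bp apart. Overlaps that touched were joined, but 1 summit of a list can still give more than 1 common summit. Wild type had 2255 in the spans out of 21919, *mbd9-3* 1151 of 11979, *arp6-1* 254 of 2909 and *arp6-1 mbd9-3* 22 of 412. In 500 kb steps averaged over the 10 span edges, wild type had 189 common summits per Mb just outside the edge and 155 just inside it. Further in, the density was 133, 87.2 and 37.6, and it was 23.3 per Mb in the innermost step, centred at −2.25 Mb (inside the edge). Span middles that lie further in than this step are not covered. Protein-coding genes fell over the same steps from 242 per Mb outside to 62.5, and pseudogenes rose from 22.8 to 169 per Mb. In *mbd9-3* the steps ran from 92.2 to 14.6 common summits per Mb. In *arp6-1* the density was 14.4 just outside the edge, 16.2 just inside it and 2.50 in the innermost step.

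**Figure D2:**
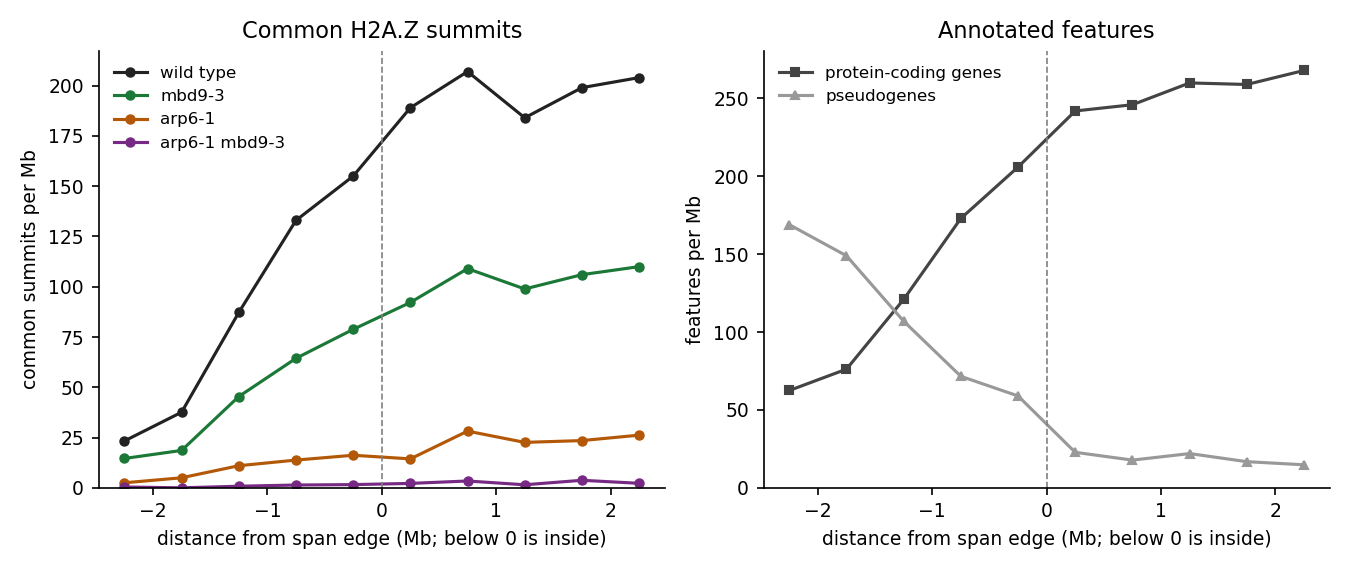
Common H2A.Z summits per Mb by genotype (left) and annotated features per Mb (right) in 500 kb steps by distance from the edge of the spans, over all 10 edges, with distances below 0 inside the spans. Wild-type summits and protein-coding genes both decline inward, and pseudogenes increase.

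In 100 kb windows the pericentromeric sites were uneven, with no common wild-type summit in 78 of 311 windows, a median of 5 and at most 30. Across these windows the number of wild-type summits went with the number of protein-coding genes, with a Pearson r of 0.744 and a Spearman rho of 0.795 as a description over 311 neighbouring windows of the same libraries. On chromosome 2 the values were lower, at 0.485 and 0.606. The longest stretch with no common wild-type summit on that chromosome covered 548 kb (chr2:2979658-3527233) and held 111 protein-coding genes and 88 pseudogenes. Of the 50-base words of this stretch, 47.4% also occur in the mitochondrial genome of the same assembly, and 89.2% occur once in the nuclear chromosomes. An insertion of mitochondrial DNA is a known feature of this chromosome. The authors left the organelle chromosomes out of the alignment, and the part of organelle reads in these values was not tested. The longest such stretch of chromosome 1 covered 1596 kb (chr1:14295931-15891645), with 16 protein-coding genes, 190 pseudogenes and 39.4% of words that occur once. Those of chromosomes 3, 4 and 5 covered 779, 714 and 470 kb.

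A smaller share of pericentromeric genes carried H2A.Z. A common wild-type summit lay in, or no more than 500 bp before, 1187 of 3383 pericentromeric protein-coding genes (35.1%, exact Clopper-Pearson 95% interval 33.5 to 36.7%), while over all 27444 genes the share was 53.2%. In the arms it was 55.7%, and the difference was −20.7 percentage points (Newcombe 95% interval −22.4 to −18.9). Intervals cover counting error only and treat summits or genes as independent, which neighbours are not. The share was lower in the spans on all 5 chromosomes, from 24.8% on chromosome 2 to 40.0% on chromosome 1, against 55.3 to 56.6% in the arms. Of pericentromeric pseudogenes 4.24% (160 of 3777) carried a summit, against 26.5% (282 of 1066) in the arms. Where a pericentromeric gene did carry H2A.Z, the number of sites in it was close to that in the arms. A single summit lay in 69.3% of such genes, against 67.2%, and 4 or more in 2.61%, against 2.92%.

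Most of these sites were genic. Of the 2255 common wild-type summits of the spans, 940 (41.7%, 39.6 to 43.8%) lay within 500 bp of a protein-coding start and 696 (30.9%, 29.0 to 32.8%) elsewhere in a protein-coding gene. A further 348 (15.4%, 14.0 to 17.0%) lay in pseudogenes, 96 (4.26%) in other genes such as those of noncoding RNAs and 175 (7.76%) between genes. In the arms the shares were 52.8% at starts, 41.1% in bodies, 1.88% in pseudogenes, 1.34% in other genes and 2.78% between genes. Pseudogenes take up 27.3% of the bases of the spans, so their sites were sparse, with 41.0 common summits per Mb of pseudogene, against 289 per Mb around starts and 12.5 per Mb between genes. In the arms these densities were 211, 466 and 28.8 per Mb.

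Sites at starts had the usual place on the gene. The median pericentromeric start summit lay 288 bp after the start (quartiles 208 and 363 bp), against 305 bp (228 and 384 bp) in the arms. After the start lay 92.8% (90.9 to 94.3%) of them, against 93.7%. The median distance from one common summit to the nearest other was 1129 bp in the spans and 1100 bp in the arms, but the most isolated 10% lay at least 9285 bp from a neighbour in the spans and at least 4988 bp in the arms.

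**Figure D3:**
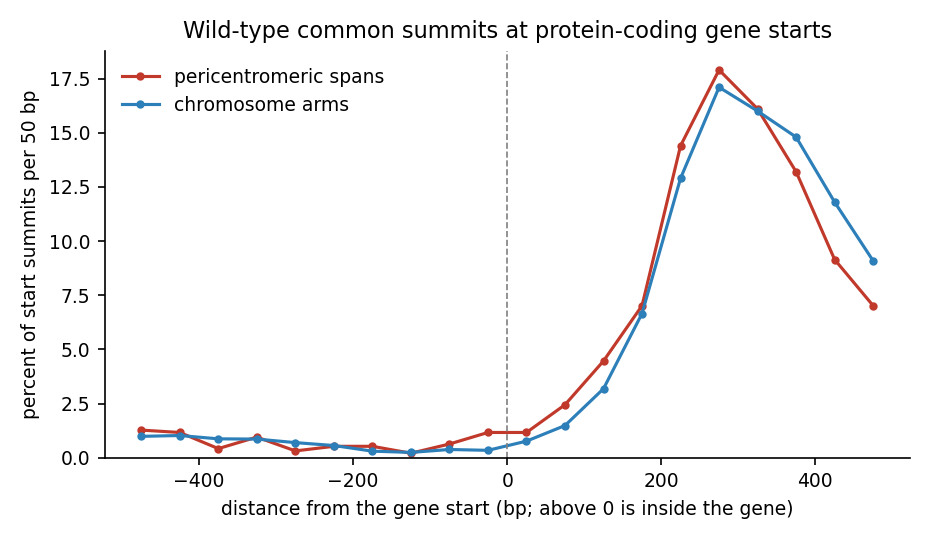
Position of common wild-type summits around protein-coding gene starts, as the percent of start summits per 50 bp, in the pericentromeric spans (940 summits) and the arms (10392 summits). Both profiles peak between 200 and 400 bp after the start, with medians of 288 and 305 bp.

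The DNA of pericentromeric sites was GC-rich compared with the spans around it. The median GC content of these windows, reaching 100 bp to each side, was 43.8% (quartiles 40.3 and 47.3%) at common wild-type summits and 36.3% (30.8 and 41.8%) over 153697 windows tiled along the spans. In the arms these medians were 44.8% and 36.3%. The mean number of CG dinucleotides was 8.18 at pericentromeric summits and 4.68 in the tiled windows. By location it was 8.91 at starts, 8.31 in gene bodies, 7.01 in pseudogenes and 6.52 between genes. Words searched on both strands were AAACCCTA (a telo-box-like word), GAGAGAGA and GAAGAAGA. GAGAGAGA lay in 4.70% (3.86 to 5.66%) of pericentromeric summit windows and 2.35% of tiled windows of the spans. GAAGAAGA lay in 11.1% (9.86 to 12.5%) and 5.12%, and AAACCCTA in 2.84% (2.19 to 3.61%) and 3.26%. By location in the spans, GAGAGAGA lay in 7.13% of start, 1.72% of body, 3.16% of pseudogene, 7.29% of other-gene and 5.14% of intergenic summit windows. In the arms GAGAGAGA lay in 6.15% of summit windows and 3.5% of tiled ones, and GAAGAAGA in 13.4% and 7.18%. AAACCCTA lay in 3.47% and 2.43% there, the other direction from the spans. None of the 6 sequences printed held one of these words, while the window of the highest site in another kind of gene, AT5G00505, held GAGAGAGA.

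A smaller share of pericentromeric than of arm sites was kept in each mutant, by under 3 points, and in the double mutant, where few sites were kept anywhere, the share was 0.843% against 1.73%. A common wild-type summit was counted as kept where a common summit of the mutant lay within 200 bp. In *mbd9-3*, 989 of 2255 pericentromeric sites were kept (43.9%, 41.8 to 45.9%), while 46.4% of all 21919 common wild-type summits were. The share in the arms was 46.7%, and the difference was −2.86 points (−5.01 to −0.685). It was −2.87 and −2.84 points with the lists of replicates 1 and 2 alone, and the share was lower in the spans on all 5 chromosomes, with differences from −6.31 to −0.332 points. Pericentromeric sites had slightly lower scores, with a median of 4.92 against 5.29. With the arms weighted to the score quintiles of the pericentromeric sites, the difference was 0.262 points, in the other direction.

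In *arp6-1*, 226 of 2255 pericentromeric sites were kept (exact interval 8.81 to 11.3%), with 11.9% over all common wild-type summits and 12.2% in the arms. The difference was −2.14 points (−3.40 to −0.754), and −2.05 and −3.91 points in replicates 1 and 2. It was 0.0463 points among summits with a score of at least 5. In *arp6-1 mbd9-3*, 19 sites were kept (0.843%, 0.508 to 1.31%), with 1.64% over all common wild-type summits and 1.73% in the arms. The difference was −0.886 points (−1.24 to −0.386), but 0.203 points at a score of at least 5. All 3 mutants were set against the same wild-type libraries. In none of the 3 mutants did 1243 (55.1%) of the pericentromeric sites have a common summit, and 783 (34.7%) had one in *mbd9-3* alone. In the arms these shares were 52.1% and 35.3%.

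**Figure D4:**
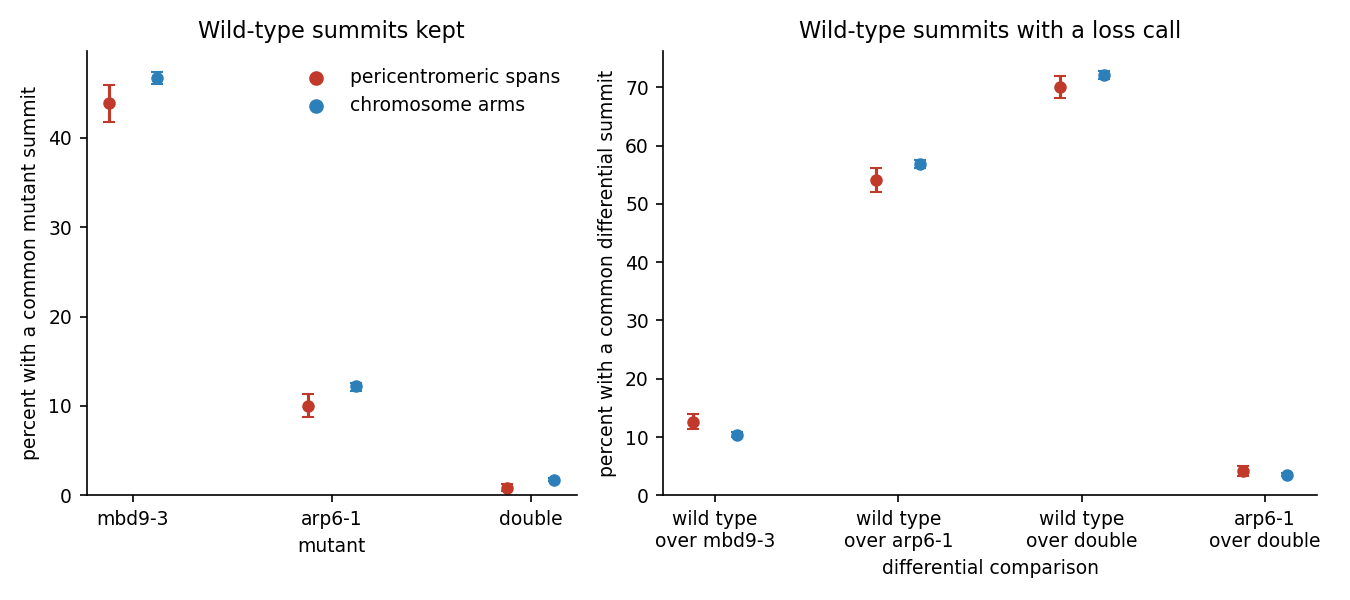
Percent of common wild-type summits kept in each mutant (left) and with a common summit of a loss list (right) in the pericentromeric spans (red, 2255 summits) and the arms (blue, 19664 summits), with exact 95% intervals. "Double" is *arp6-1 mbd9-3*. Spans and arms differ by less than 3 points in each pair.

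The small difference in *mbd9-3* joined opposite ones. Pericentromeric sites in pseudogenes were kept more often than sites of any other kind, at 204 of 348 (58.6%, 53.2 to 63.8%), against 170 of 370 (45.9%, 40.8 to 51.2%) in pseudogenes of the arms, a difference of 12.7 points (5.37 to 19.8). In replicates 1 and 2 alone, 58.3% and 64.1% were kept in the spans and 42.9% and 55.2% in the arms. Pericentromeric sites in gene bodies went the other way, at 35.9% (32.3 to 39.6%) against 45.1% in the arms, a difference of −9.22 points (−12.9 to −5.43). The differences in replicates 1 and 2 were −7.23 and −7.20 points. Median scores of body sites were 4.28 in the spans and 4.78 in the arms, and those of pseudogene sites 5.15 and 4.94. Neither of these differences by location was weighted by score. Sites at starts were kept at 46.9% and 49.5%, a difference of −2.63 points whose interval of −5.95 to 0.705 includes 0. Between genes 29.7% were kept, against 21.6%.

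**Figure D5:**
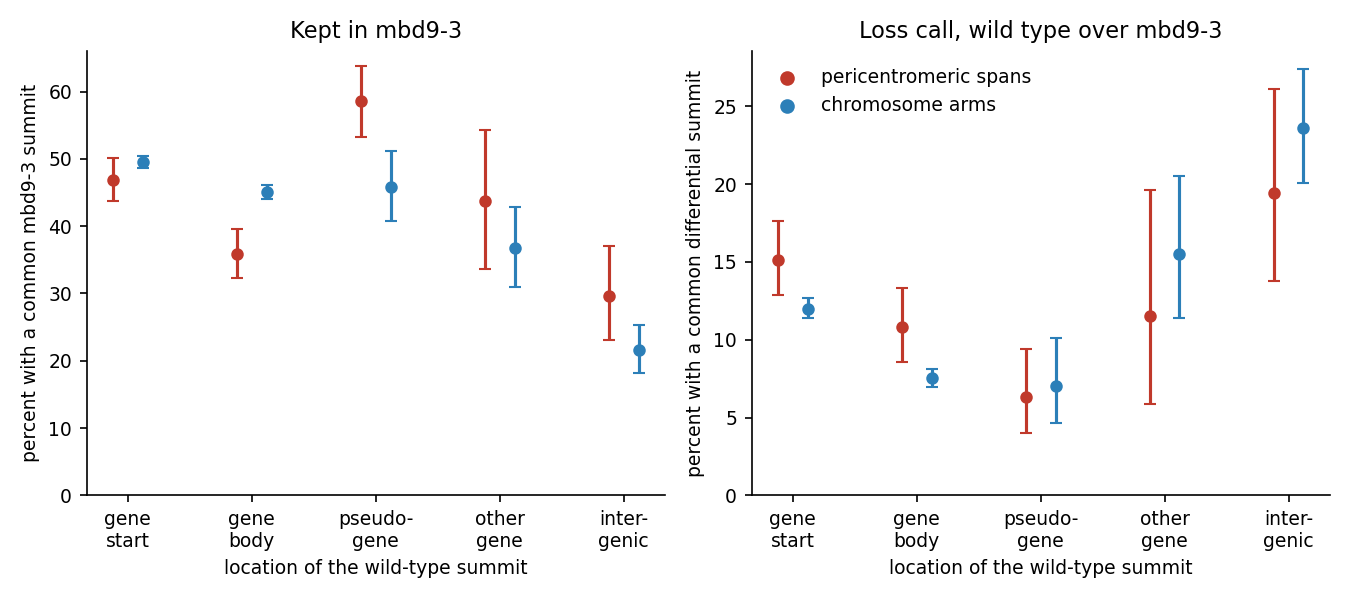
Percent of common wild-type summits kept in *mbd9-3* (left) and with a common loss summit of wild type over *mbd9-3* (right) by location, in the pericentromeric spans (red) and the arms (blue), with exact 95% intervals. Pseudogene sites of the spans stand highest on the left, at 58.6%, and lowest on the right, at 6.32%.

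Within the spans, 58.6% of pseudogene sites and 42.2% of sites in or at protein-coding genes were kept in *mbd9-3*, a difference of 16.4 points (10.6 to 22.0). The pseudogene share was higher on 4 of 5 chromosomes, while on chromosome 2 it was 47.4% (27 of 57) against 47.7% (113 of 237). Median scores were 5.15 in pseudogenes, 5.49 at starts and 4.28 in bodies, and the difference was 16.3 points with genes weighted to the score quintiles of the pseudogene sites. The 348 sites lay in 141 pseudogenes, with up to 10 in one, so they are not independent. Counted per locus, 91 of 141 pseudogenes (64.5%, 56.0 to 72.4%) kept at least 1 site, against 559 of 1157 protein-coding genes (48.3%, 45.4 to 51.2%). A single site lay in 48.9% of these pseudogenes and 70.4% of these genes, which favours pseudogenes in such a count. Loci annotated plainly as pseudogenes kept 62.5% (56.3 to 68.5%) of 259 sites, and those annotated as transcribed pseudogenes 47.2% (36.5 to 58.1%) of 89. GC content differed too, with a median of 44.3% at the 204 kept and 41.8% at the 144 other pseudogene sites. It was also higher at pericentromeric sites of all kinds with a common loss summit of wild type over *mbd9-3*, at 45.0% against 43.3% without. In pseudogenes these medians were 43.0% and 42.8%. The part of GC content was not tested.

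In *arp6-1* the comparison of pseudogene with genic sites depended on how it was counted. Kept were 38 of 348 pericentromeric pseudogene sites (10.9%) and 9.66% of sites at protein-coding genes, a difference of 1.26 points (−1.98 to 5.21). Counted per locus, 29 of 141 pseudogenes (20.6%, 14.2 to 28.2%) and 13.1% (11.2 to 15.1%) of 1157 genes kept at least 1 site. The body class was again lower in the spans than in the arms, at 5.03% and 9.5% (difference −4.48 points, −6.01 to −2.49). This difference was not weighted by score, and wild-type body sites scored lower in the spans. In *arp6-1 mbd9-3* 1 pseudogene site was kept (0.287%, 0.00727 to 1.59%). Whether the effect of location differed between the mutants was not tested, since they share their wild-type libraries.

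The loss lists showed where H2A.Z was lower in a mutant than in wild type or in *arp6-1*. Wild type over *mbd9-3* had 949 and 837 pericentromeric summits in replicates 1 and 2, wild type over *arp6-1* 2623 and 2113, wild type over the double mutant 2853 and 2563, and *arp6-1* over the double mutant 142 and 235. In this order they made up 11.3 and 14.0%, 10.7 and 10.5%, 10.7 and 10.5%, and 12.5 and 11.6% of their lists. Over all 16 lists the share was 10.4%. A common summit of wild type over *mbd9-3* lay at 284 of 2255 pericentromeric wild-type sites (12.6%, 11.3 to 14.0%), with 10.7% over all common wild-type summits and 10.4% in the arms. The difference was 2.15 points (0.772 to 3.64), but 0.595 points (−0.903 to 2.15) in replicate 1 alone and 4.54 points (2.99 to 6.16) in replicate 2 alone. Among summits with a score of at least 5 it was 0.185 points (−0.960 to 1.62). For wild type over *arp6-1* the shares were 54.1% in the spans, 56.5% overall and 56.8% in the arms. For wild type over *arp6-1 mbd9-3* they were 70.1%, 71.9% and 72.1%. These differences were −2.69 (−4.87 to −0.530) and −2.07 points (−4.09 to −0.106), but −0.283 and −1.10 points, and −0.276 and −0.0124 points, with the lists of replicates 1 and 2 alone. For *arp6-1* over *arp6-1 mbd9-3* the shares were 4.17%, 3.57% and 3.5%, a difference of 0.670 points with an interval of −0.126 to 1.61.

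Chromosome 3 stood apart in the double mutant. Loss of wild type over *arp6-1 mbd9-3* was called at 62.5% (58.4 to 66.4%) of its pericentromeric sites and at 71.5% in its arms, a difference of −8.99 points (−13.2 to −4.91), while on the other 4 chromosomes the span share was 71.6 to 74.9%. Pericentromeric sites of chromosome 3 were not kept more often in the double mutant, at 0.340% (2 of 589) against 1.44% in its arms (difference −1.10 points, −1.59 to −0.149). Loss from *arp6-1* to *arp6-1 mbd9-3* was called at 1.87% of them and at 3.52% in its arms. The *ARP6* gene lies in this span (AT3G33520) and had no common wild-type summit. Its part in these values was not tested, and the chromosome was singled out after its values were seen.

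By location, pseudogene sites had the lowest share with loss in *mbd9-3*, in the spans and in the arms. Loss in *mbd9-3* was called at 22 of 348 pericentromeric pseudogene sites (6.32%, 4.0 to 9.42%) and at 217 of 1636 sites at protein-coding genes (13.3%), a difference of −6.94 points (−9.67 to −3.5). In pseudogenes of the arms the share was 7.03%, and spans and arms differed by −0.705 points (−4.43 to 3.06). Per locus the shares were closer, at 14.9% (9.46 to 21.9%) of pseudogenes and 17.1% (15 to 19.4%) of genes. Intergenic sites had the highest share with loss in *mbd9-3* in both regions, at 34 of 175 (19.4%, 13.8 to 26.1%) in the spans and 23.6% in the arms, a difference of −4.15 points (−10.5 to 3.16). Of the 434 common pericentromeric loss summits of *mbd9-3*, 93 (21.4%) were intergenic, against 10.1% in the arms. Loss in *arp6-1* was called at 46.9% of intergenic sites of the spans and 31.3% of those of the arms, and loss in *arp6-1 mbd9-3* at 66.3% and 48.1%. In *arp6-1 mbd9-3* compared with *arp6-1*, the pseudogene share was 3.74% (13 of 348) in the spans and 0.541% (2 of 370) in the arms, a difference of 3.20 points (1.11 to 5.78).

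Individual sites show these groups. Scores rank sites within 1 list and were not compared between genotypes, so they are given here to show in which lists a site was called. The *DRD1* site named above had the highest score of the spans in each H2A.Z list, with 49.2 and 66.9 in replicates 1 and 2 of wild type. The *mbd9-3* lists gave it 94.1 and 85.5, those of *arp6-1* 86.6 and 77.8, and those of the double mutant 109 and 93.8. By the lower score of both replicates, no other common pericentromeric wild-type summit exceeded 22.6. No common loss summit lay at the *DRD1* site. This gene lies near the end of the span of chromosome 2. AT3G44050 followed with 34.0 and 22.6 in wild type. Its scores were 34.0 and 38.2 for *mbd9-3* and 11.6 and 33.1 for *arp6-1*. In the double mutant it had none in replicate 1 and 6.71 in replicate 2, and common loss summits of *arp6-1* and of *arp6-1 mbd9-3* lay there.

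*ORTHL* and *SCAMP5*, a secretory carrier membrane protein gene whose site lay at −452 bp from the start, were the next protein-coding ones of wild type. *ORTHL* scored 19.5 and 20.5 in the wild-type lists, then 12 and 17.0 for *mbd9-3* and 9.87 and 15.3 for *arp6-1*, and *SCAMP5* had 19.5 and 19.4, then 19.5 and 31.0, then 5.42 and 9.99. Neither was called in the double mutant. These 2 genes and AT3G44050 kept their sites in both single mutants and had no common summit in *arp6-1 mbd9-3*. Common loss summits compared with wild type and with *arp6-1* lay at all 3.

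Pseudogene sites kept in *mbd9-3* included the 5 highest of wild type. These 5 were picked by score, and of all 348 pericentromeric pseudogene sites 58.6% were kept. AT5G27037 had 29.0 and 21.6 in wild type and 16.5 and 18.8 in *mbd9-3*. AT3G29776 had 16.8 and 25.6, then 30.9 and 34.3, and AT1G44150 had 19.4 and 13.7, then 13.2 and 23.7. AT5G36937 had 14.3 and 14.8, then 9.83 and 11.8. AT1G47860, with 17.7 and 12.9, then 11.4 and 5.61, was the only one of these 5 at which loss in *mbd9-3* was called too. In *arp6-1*, AT3G29776 had 19.5 and 27.0 and AT5G36937 had a summit in replicate 2 alone, and the other 3 were called in both replicates. In the lists of *mbd9-3* itself another pseudogene, AT2G09800, was among the 5 highest pericentromeric sites, with 31.9 and 34.2. In those of *arp6-1* AT5G33382 was, with 19.6 and 23.0. The only pseudogene site of the double mutant lay in it too, at another position and with a lower score of 3.91.

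The 5 highest intergenic sites of wild type included that at *CYP94D1* and 2 neighbouring ones before *RALFL5*, a gene of a RALF-like signalling peptide. The 2 before *RALFL5*, at 13047850 and 13047958, had the same replicate 1 score of 14.1. The rest were nearest to the F-box gene AT1G47765 and to *AGL44*, a MADS-box gene. The site at *CYP94D1* had 14.6 and 14.2 in wild type. It scored 13.1 and 14.5 for *mbd9-3* and 13.5 and 13.6 for *arp6-1*, with none in the double mutant. All 5 were kept in *mbd9-3*, and 4 of them in *arp6-1*. They were picked by wild-type score and do not stand for their class. Of all 175 intergenic sites of the spans, 29.7% were kept in *mbd9-3* and 8.57% in *arp6-1*. In both single mutants the share of pericentromeric sites kept was highest in the top quintile of wild-type scores.

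In *arp6-1*, the highest pericentromeric sites after *DRD1* were AT4G03620, a myosin heavy chain-like protein gene, with 29.9 and 27.4, AT4G09035 with 24.7 and 35.1, and AT5G39240, a gene for an UPBEAT-like transcription factor, with 20.0 and 46.7. These 3 were also the 3 highest of the loss from *arp6-1* to *arp6-1 mbd9-3*, followed by *ALY1* (ALWAYS EARLY 1) and a site at −1436 bp from the start of *GID1C*, a gibberellin receptor gene. Both rankings use the same *arp6-1* libraries. AT4G09035 had a summit of 11.5 in replicate 2 of the double mutant as well. In *mbd9-3*, AT4G09035 had 32.0 and 44.5, and AT5G37247, a gene of unknown function with its site at −17 bp from the start, had 34.2 and 32.0.

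Of the 22 common sites of *arp6-1 mbd9-3*, 9 lay at starts, 12 in bodies of protein-coding genes and 1 in a pseudogene. *DRD1* held 3 of them, and AT1G35140 and AT5G35735 also held more than 1 each, so the 22 sites are not separate loci. *CNI1*, a gene of the carbon and nitrogen response, had 8.50 and 11.8, with 11.9 and 15.2 in wild type, and no common loss summit. The peroxidase gene AT5G39580 had 6.39 and 11.2 and *EXO*, a gene of the phosphate-responsive family, 7.70 and 6.24. *GRP-3*, a glycine-rich protein gene, had 5.25 and 13.4. AT3G29173, the MATE efflux gene AT2G04100 and *bZIP48* followed with lower scores of 4.98, 4.87 and 4.85. At these 3 loss compared with wild type was called as well, beside a remaining summit over H3. Of the 22 sites, 1 lay away from any summit of either wild-type list.

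The highest pericentromeric losses lay mostly at gene starts. Of the 5 highest of wild type over *mbd9-3*, 3 were at starts, namely AT1G32710 (a cytochrome c oxidase subunit gene, wild-type scores 14.2 and 9.34), *NHL25* (an NDR1/HIN1-like gene, 12.7 and 14.6) and the peroxidase gene AT3G42570 (14.2 and 5.89). The others lay in AT4G05430, a gene for a carbohydrate-binding domain protein, and in the pseudogene AT3G28865. The first 4 of these 5 had no summit in any mutant list. All 5 of wild type over *arp6-1* were at starts: AT1G44990, AT1G34315, the TRAF-like gene AT2G04190, the MADS-box gene AT5G26630 and AT3G29060. The first had a single *mbd9-3* summit (6.09 in replicate 1), and the other 4 were kept in *mbd9-3*, for example AT2G04190 with 17.5 and 16.1 in wild type and 20.6 and 24.0 in *mbd9-3*. For wild type over *arp6-1 mbd9-3* the 5 highest, all at starts, were AT2G13422, the prefoldin-like gene AT5G27330, AT3G44050, AT1G42430 and AT5G36000. AT1G42430, annotated as an inactive purple acid phosphatase-like gene, is the first site after the long empty stretch of chromosome 1. It had 16.3 and 12.8 in wild type and none in any mutant.

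Few pericentromeric sites of the single mutants lay away from every wild-type summit. Of the common summits of *mbd9-3* in the spans, 44 of 1151 (3.82%, 2.79 to 5.10%) had no summit of either wild-type list within 200 bp, against 4.38% in the arms, a difference of −0.555 points (−1.60 to 0.768). Of these 44, 17 lay in gene bodies, 12 in pseudogenes, 10 at starts, 3 between genes and 2 in other genes. In *arp6-1* there were 7 of 254 (2.76%), against 2.49% in the arms.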

How the data were processed

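H2A.Z and H3 ChIP-seq libraries of 4 genotypes with 2 replicates each were made by the authors. Per the study's methods, reads were aligned to TAIR10 without the organelle chromosomes by Bowtie, keeping unique matches, duplicates were removed with SAMtools, and peaks were called per replicate with MACS2 2.1.1 at a q value of 0.01 and an extension size of 200. The deposited summit lists hold 1 position per peak and, as score, the −log10 of the q value that the authors' MACS2 gave. A text file describing the lists was not used.

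Summits were assigned to the fixed spans by position, and genes by midpoint. Common summits were the overlaps of summits of both replicates, each extended by 100 bp, with touching overlaps joined, scored by the lower value. A wild-type site counted as kept or lost where a common summit of the other list lay within 200 bp. Genes, pseudogenes and sequence came from the RefSeq annotation and genome of TAIR10.1. Shares carry exact Clopper-Pearson and differences Newcombe 95% intervals, which cover counting error only. Named sites were the 5 highest by lower score in each list, up to 10 in the double mutant, the highest of each chromosome, and the 5 highest pseudogene and intergenic sites of wild type. Members and lists were chosen with earlier results of these data known. Scores of at least 5 or 10, spans shifted by 500 kb, other joining distances, score-matched arms, location subsets and single replicates were tried as alternatives. Scripts were tested on simulated data and run with Python 3.11.15, numpy 2.4.6, pandas 2.3.3, scipy 1.17.1 and matplotlib 3.10.9.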

Additional observations from a re-analysis of the deposited data

How the results depend on the processing

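Of 120 alternative values, 38 moved by less than the spread between replicates, 69 by more, and 13 turned their direction. That spread is the SD of 2 single-replicate values. It was 0.0209 points for sites kept in *mbd9-3* but 2.79 points for sites lost in it, so these counts do not compare results with each other. Single-replicate density ratios could not move by more than it, because the main value is their mean. The causes were not tested.

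Density ratios of spans to arms stayed below 1 throughout. For wild type the ratio was 0.309 at scores of at least 5, 0.260 at 10, 0.257 with spans narrowed by 500 kb, 0.397 widened, 0.380 per Mb of unique words and 0.823 per gene. For *mbd9-3* it was 0.291 at 10, 0.240 narrowed, 0.365 widened, 0.355 per unique Mb and 0.769 per gene. For *arp6-1* it was 0.273 at 5, 0.322 at 10, 0.207 narrowed, 0.293 widened, 0.304 per unique Mb and 0.658 per gene. For the double mutant it was 0.694 at 10, 0.137 narrowed, 0.208 widened, 0.201 per unique Mb and 0.436 per gene. Without the summits in *DRD1*, an alternative chosen after seeing the data, it was 0.210 at 10.

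Differences in kept sites, spans minus arms in points, follow. For *mbd9-3* they were −0.946 at 5, −0.335 at 10, −2.65 narrowed, −3.97 widened, −2.94 and −3.56 with joining at 100 and 500 bp, −2.63 for start sites, and turned to 0.262 with score-matched arms and 15.5 outside protein-coding genes. For *arp6-1* they were −0.350 with score-matched arms and −3.91 to −2.05 in single replicates, and turned to 0.0463 at 5, 0.558 at 10 and 3.70 outside genes. For the double mutant they were −0.987 narrowed, −0.510 and −1.12 at 100 and 500 bp, −0.639 score-matched, −0.670 at starts, −0.262 outside genes, −1.83 to −1.71 in single replicates and −1.02 without *DRD1* (also chosen after seeing the data), and turned to 0.203 at 5 and 0.437 at 10.

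For *mbd9-3* the difference in lost sites was 0.185 (−0.960 to 1.62) at 5, 0.479 (−0.296 to 2.94) at 10 and 0.595 to 4.54 in single replicates, and turned to −5.77 outside genes. For *arp6-1* these differences were −3.94 at 5, −0.384 narrowed, −1.96 widened, −3.65 and −1.98 at 100 and 500 bp, −0.929 score-matched, −4.71 at starts and −1.10 to −0.283 in single replicates, and turned to 1.92 at 10 and 11.3 outside genes. For the double mutant they were −3.26 at 5, −0.944 narrowed, −1.61 widened, −2.42 and −1.28 at 100 and 500 bp, −2.54 at starts and −0.276 to −0.0124 in single replicates, and turned to 8.52 at 10, 0.363 score-matched and 14.1 outside genes. For *arp6-1* over the double mutant they were 1.40 at 5, 1.21 score-matched, 2.18 outside genes and 0.587 to 1.16 in single replicates. The difference in genes with a summit was −15.6 at 5, −5.43 at 10, −22.9 narrowed, −16.9 widened, −19.1 at 100 bp and −22.8 to −21.8 in single replicates.

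No paired analysis was possible because the values come from no test across libraries. Each was given within replicates 1 and 2 instead. Summit lists hold no read counts, so a site below the calling limit and a site without H2A.Z cannot be told apart, and how depth bears on the counts was not tested. Sites were counted as independent although neighbours share peaks and genes.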
